A study of Mus musculus with 3 samples.

Results

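The receptors described here are cell-surface proteins that bind growth factors, and they comprise 10 genes: the FGF receptor genes Fgfr1, Fgfr2, Fgfr3 and Fgfr4, the stem cell factor receptor gene Kit, the PDGF receptor gene Pdgfra, the insulin-like growth factor receptor genes Igf1r and Igf2r, and the EGF receptor family genes Egfr and Erbb3. They were chosen by name, as every probe set that the array annotation assigns to exactly 1 of these genes. This gave 34 probe sets of the 34945 with 1 gene each, and 10 of 18193 genes. Mouse embryonic stem (ES) cells with a conditional knockout of Pou5f1, which encodes the pluripotency factor Oct3/4, were sampled at day 0, day 1 and day 2 on Affymetrix arrays. There was 1 array per day and hence no replicate, so no value has a replicate error and no difference was tested. All groups carried the conditional allele, and no culture that kept Oct3/4 was sampled at day 1 or day 2, so its loss, time in culture and any inducing agent cannot be told apart. The sources used here do not give the ES cell line, the number of clones or the inducing agent.

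Most of these receptors are tyrosine kinases. A bound ligand brings receptor chains together, they phosphorylate one another, and adaptor proteins such as GRB2, FRS2, GAB1 and SHC1 carry the signal to the RAS and ERK kinases and to PI3 kinase and AKT. In mouse ES cells the autocrine ligand FGF4 acts through FGF receptors to favour exit from the pluripotent state, and in the mouse embryo the same ligand reaches FGFR2 on trophectoderm, the lineage that forms the placenta. IGF2R is not a kinase: it binds IGF2 and delivers it to lysosomes for breakdown.

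Values are MAS5 signals, linear array intensities with 1 number per probe set, a group of short probes against the same transcript. Differences are between log2(signal + 55.9), where 55.9 is the 40th percentile of all signals and serves here as the mark below which a signal is called dim. On this scale the change of a dim gene is understated. Probe sets were kept where their mean over the 3 days reached 55.9, and each gene is represented by its brightest kept probe set. Of the 34 receptor probe sets 27 were kept and 7 were not, and every receptor retained at least 1. The spread between kept probe sets of the same gene, pooled over 5906 genes, had an SD of 0.34 in log2 for day 2 minus day 0, 0.30 for day 1 minus day 0 and 0.30 for day 2 minus day 1. It covers probe error and omits the variation between cultures and hybridisations. Signals of different probe sets are not set against each other, because probes differ in how strongly they bind.

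The median signal per array lay between 83.5 (day 0) and 92.5 (day 1), with 87.6 at day 2. The deposited column of day 2 also holds 64 control probe sets that the other columns leave empty, and the sources used here do not say whether that array was processed apart. Pou5f1, the targeted gene, gave 2400.4 at day 0, 40.8 at day 1 and 15.5 at day 2. All 10 ES cell markers were at least 2-fold lower at day 2 than at day 0, and they summed to 121849 at day 0, 73417 at day 1 and 25153 at day 2. Sums of this kind, here and below, weigh the brightest probe sets most and do not describe each marker. In whole cultures such as these, fewer cells of a type and less RNA per cell cannot be told apart.

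Among the 10 receptors, Kit was lower at both later days, Fgfr1 and Fgfr2 were higher at both, Erbb3 was highest at day 1, Igf2r was modestly higher, and the others moved little or could not be settled. For day 2 against day 0, 1 receptor was at least 2-fold higher (Fgfr1), where 5.25% of the 12717 measured genes were. Likewise 1 was at least 2-fold lower (Kit), against 5.65% of genes. For day 1 against day 0, 2 were at least 2-fold higher (Fgfr2 and Erbb3; 2.4% of genes) and 1 at least 2-fold lower (Kit; 2.59%). Between day 2 and day 1, 0 receptors were 2-fold higher and 0 were 2-fold lower, against 2.09% and 2.65% of genes. With 10 genes, 1 is the smallest count above 0, so the counts of 1 say little against these shares. When the arrays were scaled so that 13 ribosomal protein genes had the same median, the genes at least 2-fold changed at day 2 split into 486 higher and 918 lower, against 668 and 718 here. At day 1 they split into 195 and 451, against 305 and 330.

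**Figure D1:**
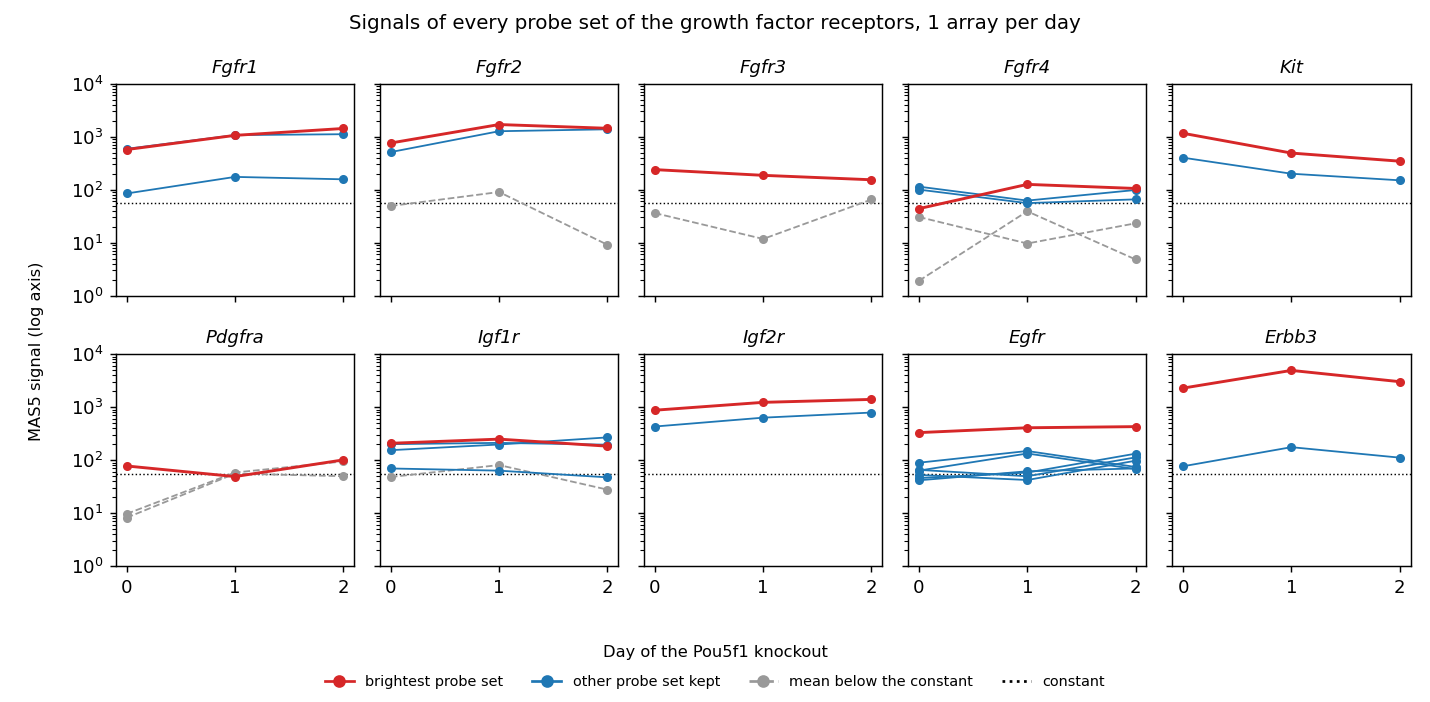
MAS5 signal (log axis) of every receptor probe set against the day of the Pou5f1 knockout, 1 array per day. Red lines are the brightest probe set of a gene, blue lines other kept probe sets, dashed grey lines probe sets with a mean below the constant of 55.9, which is the dotted line. Both Kit lines descend over the days, the brightest to 344 at day 2, and the Erbb3 lines peak at day 1.

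The median difference of the 10 receptors was 0.36 for day 2 minus day 0, against 0.05 over all genes, and 0.37 for day 1 minus day 0, against 0.04. For day 2 minus day 1 it was −0.19, against 0.00187. In 7 of 10 receptors the day 2 difference was larger than the pooled spread of probe sets, a size that 47.3% of genes exceeded. Of the 8 receptors with several kept probe sets, 5 had all of them on the same side of 0 at day 2 (Fgfr1, Fgfr2, Kit, Igf2r and Erbb3), and 62.9% of genes with several kept probe sets did so. The same 5 did at day 1, against 55.9%. The counts of 5 are near the background and say nothing particular about the receptors. The count of 7 lies above its share, but with 10 genes it says little.

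**Figure D2:**
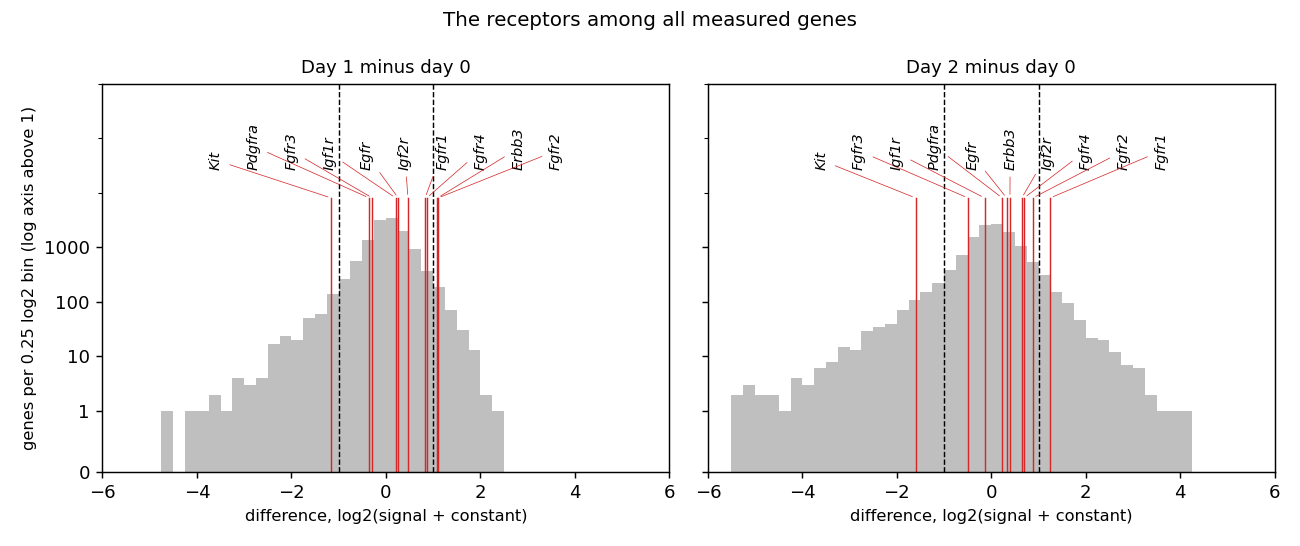
Number of genes per bin of 0.25 in log2 (vertical axis, logarithmic above 1) against the difference in log2(signal + constant), for day 1 minus day 0 and day 2 minus day 0. Red lines mark the 10 receptors and dashed lines 2-fold; Kit lies furthest left at −1.15 and −1.60, and Fgfr1 furthest right at day 2, at 1.24.

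Kit, the receptor tyrosine kinase for stem cell factor, had the largest difference from day 0 among the brightest probe sets of the 10. Its brightest probe set, 1452514_a_at, gave 1156 at day 0, 489 at day 1 and 344 at day 2. The other, 1415900_a_at, gave 400.2 at day 0, 199 at day 1 and 149.7 at day 2. Both therefore had their highest signal at day 0 and their lowest at day 2, and none of these signals was dim. At day 2 the brightest stood at 29.8% of its day 0 signal and the other at 37.4%. On the log2 scale the brightest was at −1.60 for day 2 minus day 0, or 3.03-fold lower, and the other at −1.15. Most of this was present at day 1, with −1.15 for the brightest and −0.84 for the other. The remaining step, day 2 minus day 1, was −0.45 and −0.31. Of genes with several kept probe sets, 1.95% had all of them at least 2-fold lower at day 2, as Kit had. Both probe sets carry the suffix _a_at, which marks probes shared by several transcripts of a gene, so there is no Kit value without such probe sets. Averaged over its probe sets, Kit was at −0.995 at day 1, just under 2-fold.

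The RefSeq promoter of Kit (GRCm38.p6, chr5:75574737-75575036, plus strand, 250 bases before to 50 after the start) is shown because Kit was lower on both later days. Capitals mark matches, on either strand, to 4 letter patterns chosen with the results known: ATGCAAAT, the octamer that POU factors such as Oct3/4 bind, AGATAA of GATA factors, the E-box CACGTG, and GCCNNNGGC of AP-2 factors.
Kit promoter: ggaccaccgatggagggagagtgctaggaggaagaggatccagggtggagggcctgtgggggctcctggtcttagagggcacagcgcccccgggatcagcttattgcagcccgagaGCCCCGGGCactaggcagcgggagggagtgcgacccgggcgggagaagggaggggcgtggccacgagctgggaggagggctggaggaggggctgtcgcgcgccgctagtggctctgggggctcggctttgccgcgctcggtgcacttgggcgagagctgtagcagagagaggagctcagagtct
The capitals are an AP-2 pattern that begins at position −134. Of 32851 promoters of this length, 16.6% hold that pattern, 1.74% the octamer, 11.2% the GATA pattern and 7.15% the E-box. RefSeq entries were found for 8 of the 10 receptors, 10 entries in all, and 0 of them hold the octamer or the GATA pattern. A match is a description of these letters and not a binding site.

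Kitl, the gene of stem cell factor and so the ligand of KIT, moved the other way from its receptor. Its brightest probe set gave 143 at day 0, 388 at day 1 and 310.3 at day 2. The difference was 1.16 at day 1 and 0.88 at day 2, both relative to day 0. All 4 kept probe sets of Kitl lay above 0 on both days, from 0.32 to 1.47 at day 1 and from 0.16 to 1.44 at day 2. Kit is also expressed by germ cells and by blood and mast cells. Of 7 measured germ cell markers 1 was at least 2-fold lower at day 2 (Prdm1, −1.14), where 5.65% of all genes were, and 0 were higher. The 7 summed to 3939.8 at day 0, 3772 at day 1 and 3756 at day 2. Of 9 blood and mast cell markers 6 were dim, the mast cell protease genes Cpa3 and Mcpt4 and the leukocyte gene Ptprc among them, and 0 of the other 3 passed 2-fold at day 2. All 9, dim ones included, summed to 654 at day 0, 938 at day 1 and 958 at day 2. None of the markers was at 0, which by itself does not show that such cells were present. The part of these cells in the Kit signal was not tested.

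Fgfr1 and Fgfr2 encode FGF receptors, and the kept probe sets of both were higher after day 0. The brightest Fgfr1 probe set, 1425911_a_at, gave 570 at day 0, 1055 at day 1 and 1423 at day 2. Probe set 1424050_s_at gave 588 at day 0, 1068 at day 1 and 1109.9 at day 2, and 1436551_at gave 84.4 at day 0, 174 at day 1 and 156 at day 2. All 3 were thus lowest at day 0, and they differed in whether day 2 exceeded day 1. At day 1 their differences were close to each other, between 0.71 and 0.83. At day 2 they ran from 0.60 to 1.24, so that the brightest was 2.36-fold higher than at day 0 and the other probe sets stayed under 2-fold. Averaged over the probe sets, Fgfr1 was at 0.90 at day 2, and without probe sets that may bind several transcripts at 0.60, both under 2-fold.

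Fgfr2, the receptor that trophoblast stem cells use for FGF4, had 2 bright probe sets. The brightest, 1433489_s_at, gave 757 at day 0, 1689.6 at day 1 and 1436 at day 2. The other, 1420847_a_at, gave 511 at day 0, 1264 at day 1 and 1374 at day 2. Both were at least 2-fold higher at day 1, by 1.10 and 1.22, which 0.694% of genes with several kept probe sets were in all of theirs. At day 2 they differed by 0.87 and 1.34 from day 0, and the step after day 1 was −0.23 for the brightest and 0.12 for the other. Averaged over its probe sets, Fgfr2 was at 1.11 at day 2, past 2-fold, which its brightest alone was not. Both steps after day 1 were smaller than the pooled spread between probe sets. A remaining probe set, 1443211_at, was dim in its mean, with 49.0 at day 0 and 9.10 at day 2, and lay above the constant only at day 1. The bright probe sets end in _s_at, which may match other genes, or _a_at, and without such probe sets Fgfr2 had no value. With equal ribosomal protein medians the median over all genes shifted by −0.14 at day 1, and Fgfr2 was at 0.96, under 2-fold.

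The RefSeq promoter entry of Fgfr2 (GRCm38.p6, chr7:130266759-130267058, minus strand) is shown because both bright Fgfr2 probe sets were at least 2-fold higher at day 1. Its only match to the 4 patterns is an E-box that begins at position 29 after the start.
Fgfr2 promoter: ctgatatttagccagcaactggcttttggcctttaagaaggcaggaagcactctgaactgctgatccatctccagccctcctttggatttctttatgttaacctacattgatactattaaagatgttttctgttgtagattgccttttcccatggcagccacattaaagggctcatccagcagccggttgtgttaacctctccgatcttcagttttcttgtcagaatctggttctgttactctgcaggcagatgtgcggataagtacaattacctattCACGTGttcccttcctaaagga
The window has 43.7% G and C, against 69.0% for that of Kit and a median of 52.7% over all promoters.

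Fgfr3 and Fgfr4 had no 2-fold difference that their probe sets shared. Fgfr3 gave 238 at day 0, 186 at day 1 and 153 at day 2 in its only kept probe set, a difference of −0.49 at day 2. Its dim probe set gave 36.0 at day 0, 11.7 at day 1 and 65.0 at day 2, with no shared direction. Fgfr4 was represented by 1427846_x_at, with 43.7 at day 0, 125 at day 1 and 105 at day 2, and a difference of 0.69 at day 2. The other kept probe sets gave −0.14 and −0.36 at day 2, the brightest of them with 114 at day 0, 62.0 at day 1 and 98.3 at day 2. The suffix _x_at marks probes that may bind unrelated transcripts. The mean signal of 1427846_x_at, 91.37, was nearly tied with the 91.30 of 1427777_x_at, which was at −0.14. A small rescaling can therefore change which probe set represents Fgfr4. Its value was −0.17 with quantile normalisation, −0.26 with equal ribosomal protein medians and −0.36 without _x_at, _s_at and _a_at probe sets. The sign thus depended on the choice of probe set, and no direction is given for Fgfr4.

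Of the FGF ligand genes, those that changed by 2-fold were lower. Fgf4, the main FGF of ES cells, gave 3253 at day 0, 958 at day 1 and 73.5 at day 2, a difference of −4.68 at day 2, with −4.22 and −2.42 in its other kept probe sets. Fgf17 gave 215 at day 0, 66.4 at day 1 and 6.90 at day 2, which is −2.11 at day 2, though its day 2 signal was dim. Fgf9 was at −1.07 for day 1 and −0.43 for day 2, both against day 0. Of the 24 FGF ligands and co-receptors 9 were measured and 15 were dim, including Fgf2, Fgf5 and Fgf8. Of the 9 measured, 2 were lower by at least 2-fold at day 2, where 5.65% of all genes were, and 0 were higher. The median of the 9 was −0.43, and this median was 0.04 with dim probe sets included and −4.68 under a filter set at the 60th percentile. Fgf4 was also in the list of ES cell markers.

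Genes known to respond to ERK activity, many of which restrain it, were mostly lower at day 2. Of 10 such genes 7 were lower by at least 2-fold at day 2, where 5.65% of all genes were, and 0 were higher. The median was −2.13, or −1.30 with the mean over the probe sets of each gene. The 3 within 2-fold at day 2 were Egr1 (−0.49), Spry1 (−0.13) and Fos (0.98), and Fos was at 1.31 for day 2 minus day 1. At day 1 only 3 of the 10 had passed 2-fold, with a median of −0.38. Etv5, an ETS transcription factor gene, gave 6975 at day 0, 2719.6 at day 1 and 701 at day 2, and Etv4, another, was at −3.19 at day 2, with −1.26 in its other kept probe set. Spry4, a gene of a receptor signalling inhibitor, was at −2.28, and its 4 kept probe sets ran from −3.07 to −1.58. Il17rd, which encodes an inhibitor of FGF receptor signalling at the membrane, gave 985 at day 0, 444 at day 1 and 178 at day 2, a difference of −2.16, while its other kept probe set gave −0.52. Dusp6, an ERK phosphatase gene, gave 1791 at day 0, 1733 at day 1 and 187 at day 2. Relative to day 0, Dusp6 was thus at −0.05 at day 1, when Fgfr1 was at 0.83 and Fgfr2 at 1.10. Of the negative regulators of receptors, which have 23 measured members, Spred1 and Spred2, genes of inhibitors of the RAS to ERK step, were at −2.15 and −1.09 at day 2. The 6 kept probe sets of Spred1 ran from −2.15 to −0.86, and the 5 of Spred2 from −1.64 to −0.00756, so the probe sets of Spred2 differed.

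**Figure D3:**
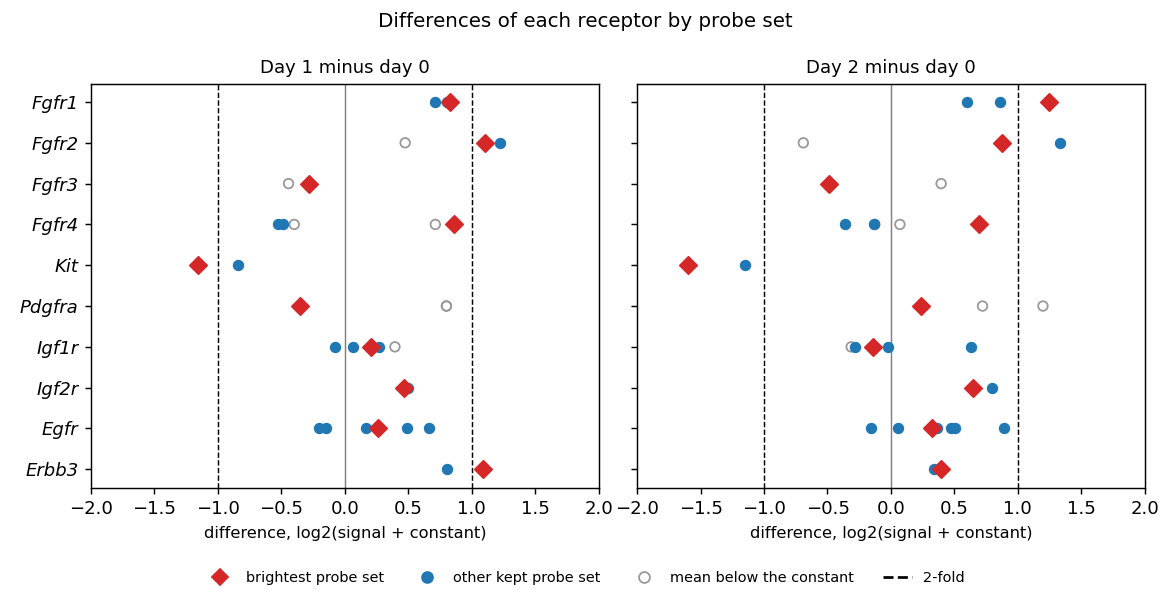
Difference in log2(signal + constant) on the horizontal axis, for day 1 minus day 0 and day 2 minus day 0, of each receptor probe set. Red diamonds are the brightest probe set of a gene, blue points other kept ones, open points those with a mean below the constant, and dashed lines 2-fold. The points of Kit, Fgfr1, Fgfr2, Igf2r and Erbb3 lie on the same side of 0 among kept probe sets, while those of Fgfr4, Igf1r and Egfr lie on both sides.

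Erbb3 encodes an EGF receptor family member with little kinase activity of its own that signals through partners such as ERBB2, and it had its highest signal at day 1. Probe set 1434606_at gave 2293 at day 0, 4947 at day 1 and 3031 at day 2. Probe set 1452482_at gave 76.7 at day 0, 176 at day 1 and 112 at day 2. In both, day 1 stood above the other days and day 2 stayed above day 0. The difference in the brightest was 1.09 at day 1, and the step from there to day 2 was −0.70, leaving 0.39 for day 2 minus day 0. The other probe set gave 0.81, −0.47 and 0.34 for the same comparisons. A peak of this kind, at least 2-fold above day 0 at day 1 and lower again at day 2, was found in 183 genes, or 1.44%, including Erbb3 and, by a step of only −0.23, Fgfr2. With equal ribosomal protein medians Erbb3 was at 0.94 at day 1, under 2-fold.

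Erbb2, the usual partner of ERBB3, gave 129.6 at day 0, 146 at day 1 and 204 at day 2, a difference of 0.49 at day 2. Erbb4 was dim, at 8.30 at day 0, 2.20 at day 1 and 3.70 at day 2. The neuregulin genes Nrg1, Nrg3 and Nrg4, whose products are ligands of ERBB3 or ERBB4, were dim as well. Nrg2 was at −0.38 for day 2 minus day 0. Of the 8 other receptors of the same families, 6 were measured and 0 passed 2-fold at day 2, with a median of 0.21 that was −0.08 without the filter on dim probe sets.

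Egfr, the EGF receptor gene, had 7 kept probe sets and small differences that depended on the probe set. The brightest, 1460420_a_at, gave 331 at day 0, 409 at day 1 and 429.6 at day 2, a difference of 0.33 at day 2. The other 6 had signals between 41.7 and 149, near the constant. The pair 1432647_at and 1454313_at, designed from the same source sequence, was highest at day 1 and at 0.05 and −0.16 at day 2. The pair 1424932_at and 1451530_at, designed from another, was lowest at day 1 and at 0.50 and 0.47 at day 2. Across the 7 the day 2 differences ran from −0.16 to 0.89, with the probe sets on both sides of 0.

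Among the ligands of EGFR, Tgfa gave 82.8 at day 0, 206 at day 1 and 219 at day 2, with 0.99 at day 2, while its other kept probe sets gave −0.07 and 0.74. Hbegf gave 1118 at day 0, 1068 at day 1 and 1617 at day 2, a difference of 0.51 at day 2. Of the 5 measured members of the EGF and neuregulin list 0 passed 2-fold at either day, and their median at day 2 was 0.16, or −0.00384 with equal ribosomal protein medians and 0.75 under that stricter filter. Errfi1, which encodes an inhibitor that binds the kinase domain of EGF family receptors, gave 936 at day 0, 1951 at day 1 and 2792 at day 2. Its probe sets were at 1.52 and 1.32 at day 2, and it was the only 1 of the 23 negative regulators at least 2-fold higher.

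Igf2r, the receptor that removes IGF2, was higher at each later day in both of its probe sets, by less than 2-fold. Probe set 1424112_at gave 877 at day 0, 1234 at day 1 and 1402 at day 2, and 1424111_at gave 432 at day 0, 634 at day 1 and 792 at day 2. The days stood in the same order in both, with day 2 highest. The differences were 0.47 and 0.50 at day 1 and 0.64 and 0.80 at day 2, all relative to day 0 and all larger than the pooled spread. A probe set that the annotation assigns to Airn and Igf2r together, Airn being the antisense RNA that silences the paternal Igf2r allele, was left out by the rule and was dim apart from day 2, with 15.9 at day 0, 41.2 at day 1 and 61.7 at day 2.

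The RefSeq promoter of Igf2r (GRCm38.p6, chr17:12769657-12769956, minus strand) is shown because it carries more pattern matches than the other receptor promoters, with 2 E-boxes that begin at positions −48 and −7.
Igf2r promoter: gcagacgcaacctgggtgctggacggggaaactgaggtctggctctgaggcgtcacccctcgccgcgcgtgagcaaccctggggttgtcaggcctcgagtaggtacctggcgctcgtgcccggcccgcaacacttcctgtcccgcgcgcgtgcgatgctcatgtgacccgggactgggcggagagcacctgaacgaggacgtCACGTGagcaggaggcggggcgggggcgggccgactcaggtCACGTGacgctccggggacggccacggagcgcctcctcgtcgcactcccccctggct
It holds 34 CG dinucleotides, against 20 in the Kit window and 4 in that of Fgfr2.

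Igf1r, the kinase receptor for IGF1 and IGF2, showed no shared direction. Its brightest probe set, 1452982_at, gave 208 at day 0, 249.5 at day 1 and 184 at day 2. Probe set 1428967_at, designed from the same source sequence, gave 154 at day 0, 198 at day 1 and 269 at day 2. At day 2 the brightest was thus at −0.14 and its companion at 0.63, and the other kept ones at −0.03 and −0.28. Averaged over its probe sets, Igf1r was at 0.04 at day 2.

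Igf2, whose product binds both receptors, gave 2682 at day 0, 10890.1 at day 1 and 25737 at day 2, a difference of 3.24 at day 2. Igf1 gave 19.8 at day 0, 104 at day 1 and 109 at day 2, a difference of 1.12, though its day 0 signal was dim and its other kept probe set gave 0.53. Of 9 measured genes of the IGF ligands and binding proteins 2 were at least 2-fold higher at day 2, where 5.25% of all genes were. By that size 0 were lower, and the median was 0.52. The insulin receptor gene Insr was at −0.06.

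Pdgfra, a PDGF receptor gene that marks primitive endoderm in the mouse embryo and fibroblasts in many tissues, was at the edge of the measurable range. Its kept probe set, 1421916_at, gave 77.7 at day 0, 49.0 at day 1 and 101 at day 2. Probe set 1421917_at, from the same source sequence, gave 9.70 at day 0, 58.4 at day 1 and 94.6 at day 2, and its mean of 54.2 lay just outside the filter. Probe set 1438946_at gave 8.20 at day 0, 55.8 at day 1 and 49.8 at day 2. All 3 had a higher signal at day 2 than at day 0, by 0.23, 1.20 and 0.72, but they differed in direction at day 1, where the kept one was at −0.35 and the others at 0.80. Pdgfrb, the gene of the other PDGF receptor chain, gave 60.8 at day 0, 144 at day 1 and 123 at day 2. Of the ligand genes, Pdgfa was at 0.05 at day 2 with 0.34 in its other probe set, while Pdgfc gave 277 at day 0, 59.4 at day 1 and 83.4 at day 2, which is −1.26 at day 2, its other probe set giving −0.55.

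Markers of the cell types in which these receptors are known were read beside them. Of 10 measured trophectoderm markers 8 were at least 2-fold higher at day 2, where 5.25% of all genes were. All 11 listed, with the dim Elf5 included, summed to 11036 at day 0, 16415 at day 1 and 60795 at day 2. Krt18, from 4026 at day 0 to 24610 at day 2, and Krt8, from 2474 to 18358, weighed most in this sum. Fgfr2 and Erbb3 had reached their highest brightest-probe signals at day 1, when 4 of the 10 measured markers had passed 2-fold (Cdx2, Eomes, Gata3 and Hand1). Of these, Eomes was at 1.04 at day 1 and at −0.32 at day 2. The other bright Fgfr2 probe set was highest at day 2, at 1374. Of 8 measured primitive endoderm markers 3 were at least 2-fold higher at day 2 (Col4a1, Dab2 and Gata6) and 1 lower (Lama1). All 12 listed, dim ones included, summed to 3529.99 at day 0, 6745 at day 1 and 7919 at day 2. Col4a1, from 1061 at day 0 to 4072 at day 2, and Lamb1, from 1137 to 2229, weighed most in this sum. Gata4 (−0.43) and Sox17 (−0.27) were not higher, and Sox7 and Foxa2 were dim. Of 12 fibroblast and feeder markers 9 were dim, Col1a1 and Col3a1 among them. All 12, dim ones included, summed to 775 at day 0, 759 at day 1 and 587 at day 2. Of the 3 measured, Thy1 was at least 2-fold lower at day 2 (−1.65), Col1a2 was at 0.26 and Pdgfrb at 0.62. No listed marker was at 0, but dim probe sets also give signals above 0, so this does not show that these cells were present. The part of these cell types in the receptor signals was not tested.

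Among adaptors and signal transducers, which have 22 measured members, 2 were at least 2-fold higher at day 2 and 1 was lower. Of all genes, 5.25% were higher and 5.65% lower by that size, so these counts say little about the list. Its median was 0.23 and ran from 0.05 to 0.24 over the alternatives. Gab2, a docking protein gene downstream of KIT and other receptors, gave 109 at day 0, 213 at day 1 and 842 at day 2, a difference of 2.45, while its other kept probe sets gave 0.57 and 0.59. Akt1, a kinase gene of the PI3 kinase branch, gave 969 at day 0, 1478 at day 1 and 2578 at day 2, a difference of 1.36, with 1.53 and 0.47 in its other kept probe sets. Plcg1, the gene of a phospholipase that receptors recruit directly, gave 1292 at day 0, 1109 at day 1 and 502 at day 2, which is −1.27, while its other kept probe set gave −0.12, so that this call rests on 1 of 2 probe sets. The core adaptor genes Grb2 (0.13) and Shc1 (−0.28) stayed within 2-fold. Of the negative regulators, Socs2, a gene of cytokine and growth hormone receptor feedback, was lowest at −3.07 with its 5 kept probe sets between −3.16 and −0.58, and Inpp5d, whose phosphatase acts downstream of KIT in blood cells, was at −1.30 with −0.60 in its other probe set. In all, 1 of the 23 was at least 2-fold higher at day 2 and 5 were lower, against 5.25% and 5.65% of all genes. The median of the 23 was 0.04, or −0.11 under ribosomal scaling.

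**Figure D4:**
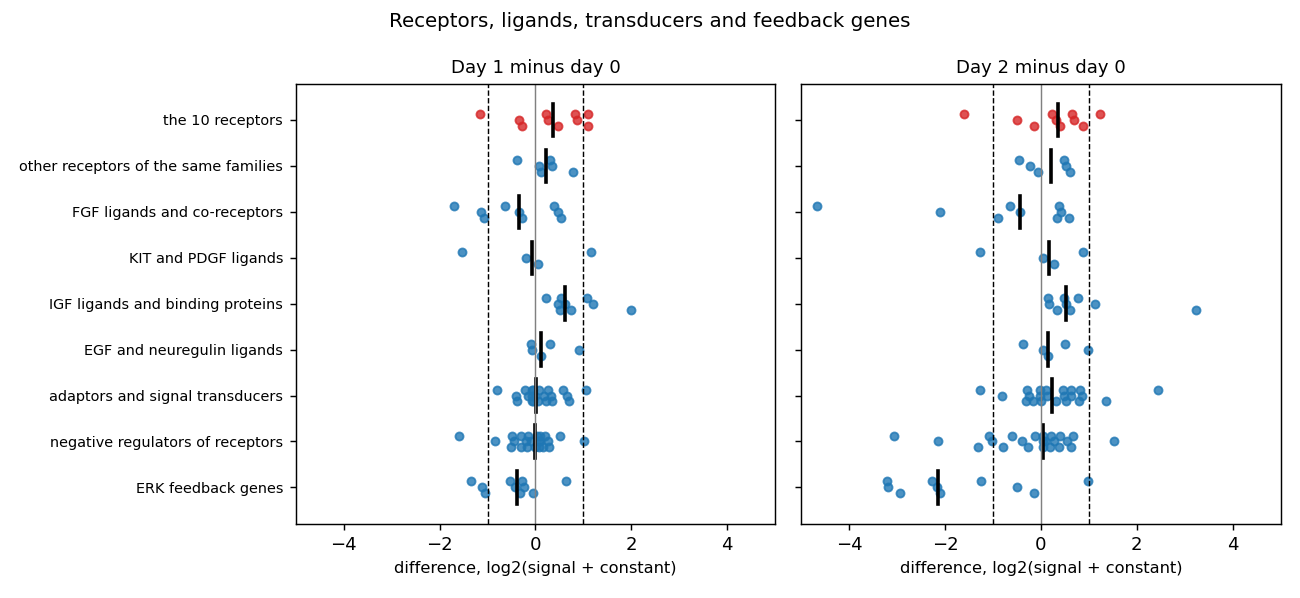
Difference in log2(signal + constant) on the horizontal axis for the measured genes of each list, for day 1 minus day 0 and day 2 minus day 0. Each point is a gene, red for the 10 receptors, black bars are list medians and dashed lines mark 2-fold. The receptors have a median of 0.36 at day 2 and the ERK feedback genes one of −2.13.

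The genes nearest to a receptor in both differences, for day 1 and day 2 against day 0, were read off for the 4 receptors at least 2-fold apart between any pair of days. For Kit these were Ttc39b, Tenm4 and Tm4sf5, at distances of 0.03, 0.06 and 0.07 in log2, and 5 genes lay within 0.1. For Fgfr2 they were Hs6st1, Plekhh1 and D630029K05Rik, among 18 within 0.1. For Fgfr1 they were Slc6a14, Cdc42ep1 and Egr3, among 24, and for Erbb3 Bhmt2, Mob3b and Gm1673, among 8. Some were dim at day 0, namely D630029K05Rik (15.2), Slc6a14 (23.4), Egr3 (32.9) and Bhmt2 (41.8), and Tm4sf5 was dim at day 2 (42.9). The changes of these genes are understated on this scale.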

How the data were processed

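Total RNA from mouse ES cells was hybridised to 3 Affymetrix arrays, 1 per day. The deposited intensity values are linear signals that the authors made with MAS5, per the submitters' processing notes, and the version and settings are not given in the sources used here. The arrays already shared a 2% trimmed mean of 498, to which they were scaled, with 64 control probe sets left out, leaving 45037. The constant, the 40th percentile of all signals pooled (55.9), was added before log2, and a probe set was kept at a mean of at least 55.9. This kept 26925, with 12717 genes. Genes came from the platform's annotation table: 34945 probe sets name 1 gene, 932 name several and gave no value, and 9160 are not listed. With 1 array per group no test, p-value or replicate error was possible, and the number of arrays limits the precision. Genes were counted at 2-fold.

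The receptors and all gene lists were chosen with earlier results of these data known. By rule, the text names the receptors, Pou5f1, ligands, up to 4 genes per list at least 2-fold apart at day 2 and 2 at day 1, up to 3 markers per cell type, and the 3 nearest genes. Other list genes named (such as Il17rd, Fos, Spry1, Spred2, Grb2, Shc1, Erbb2, Pdgfrb, Insr, dim genes and some markers) were chosen after their values were seen. Promoters are from RefSeq (GRCm38.p6). The size rule was checked on simulated data with changes larger than 2-fold, in bright genes only and with little noise. That check does not cover dim genes or changes near 2-fold. Python 3.11.15, numpy 2.4.6, pandas 2.3.3 and scipy 1.17.1 were used. Alternatives were another constant, filter, scaling and choice of probe set.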

Additional observations from a re-analysis of the deposited data

How the results depend on the processing

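No paired analysis was possible because each day has 1 array. Of 228 receptor differences recomputed under 8 alternatives, 212 moved by less than the pooled spread of probe sets and 16 by more, and 0 of those past 2-fold changed sign. Some smaller differences did change sign. For Fgfr4 this held under 3 alternatives at day 2, 4 at day 1 and 4 for day 2 minus day 1. For Igf1r and Egfr it held under 1 at day 2, and for Fgfr1 and Egfr under 1 for day 2 minus day 1. The 212 include values that could not move, because a change of the filter alone keeps a gene's brightest probe set or drops the gene. With only probe sets that carry a plain _at suffix, Kit and Fgfr2 had no value, Fgfr1 was at 0.60 at day 2, and 0 receptors were at least 2-fold higher and 0 lower at day 2, with 1 higher and 0 lower at day 1. With the mean over probe sets, 1 receptor was higher and 0 lower at day 1. At day 2 the receptor counted as higher was then Fgfr2 (1.11) and not Fgfr1 (0.90). With equal ribosomal protein medians, the all-gene median shifted by −0.16 at day 2 and −0.14 at day 1, 0 receptors were 2-fold higher at day 1, and 195 of all genes were. Over all genes, a constant at the 20th percentile gave 552 higher at day 1, and 425 higher and 576 lower for day 2 minus day 1. A constant at the 60th percentile gave 403 higher and 464 lower at day 2, 114 and 191 at day 1, and 133 and 148 for day 2 minus day 1. A filter at that percentile left 9602 measured genes instead of 12717, gave 202 higher at day 1 and removed Fgfr4 and Pdgfra. The cause of other changes was not tested. Signals of Pdgfra, Fgfr4 and most Egfr probe sets lie near the constant, which limits their differences.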

Other observations

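The binding proteins of insulin-like growth factors were followed beside their receptors. Igfbp2, a secreted binding protein gene, gave 13264 at day 0, 22364 at day 1 and 14888 at day 2, a difference of 0.75 at day 1 and 0.17 at day 2. Igfbp4 gave 470.1 at day 0, 691 at day 1 and 683 at day 2, and Igfbp3 gave 163 at day 0, 198 at day 1 and 257 at day 2. Of the 7 IGF binding protein genes 1, Igfbp1, was dim, and 0 of the others passed 2-fold at day 2. Ins2, an insulin gene, gave 27.1 at day 0, 135 at day 1 and 85.4 at day 2, and was at 1.20 for day 1 minus day 0. Its day 0 signal was dim, and its only kept probe set ends in _x_at, which marks probes that may bind unrelated transcripts.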
